A study of Drosophila melanogaster with 2 samples.

Results

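Of the 6359 conservative peaks listed for pan on the main chromosome arms of Drosophila melanogaster, 1196 had their summit at a non-divergent core promoter. Their summits lay 0 to 250 bp from the nearest annotated transcription start site (TSS). Summits with a head-to-head pair of protein-coding TSSs of different genes, both within 1 kb, were left out as divergent pairs. This held whether or not the summit lay between the TSSs. The peaks came from chromatin immunoprecipitation with sequencing (ChIP-seq), in which an anti-GFP antibody pulled down pan fused to eGFP from sonicated chromatin of transgenic flies. The labels give a fragment size range of 200 to 800, without a unit. There was 1 group with 2 replicates, both whole embryos of 0 to 24 h. The labels number the replicates as biological, without saying whether they came from separate embryo collections, and no untagged or untreated group entered the comparisons. A control is named in the labels and was not used here, so specificity for pan was not tested. Whole embryos of this age span mix all stages and tissues, and a peak does not show in which cells the protein was bound.

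The protein encoded by pan (pangolin) is the fly TCF, a DNA-binding factor of the HMG family that represses Wingless target genes together with the co-repressor Groucho and activates them when Armadillo, the fly β-catenin, joins it. A core promoter is the stretch around a TSS where RNA polymerase II and the general factors assemble. In flies, genes used in most cells often carry promoter motifs read by DREF, M1BP and BEAF-32, whereas tightly regulated genes more often carry a TATA box, an Initiator or GAGA sites.

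The sequences of 9 peaks show examples of the sites that the results turn on. Each line gives the summit and 50 bp either side on the strand of the nearest gene, read 5′ to 3′ from the RefSeq sequence of dm6 (BDGP6). Capitals mark matches, on either strand, to any of the 9 motifs found more often at these summits than at unselected promoter peaks. The first 4 are the strongest peaks of those that could be shown, and the other 5 are the strongest of those that could be shown and that hold DRE (TATCGATA), Motif 1 (GGTCACAC), Motif 6 (GTATNTTT), Motif 7 (CATCNCTA or CATCNCTG) and a GATA site (AGATAA or TGATAA). The remaining 4 motifs, BEAF-32 (CGATA, which every DRE contains), the TATA box (TATAAA), the homeodomain site (TAATTA) and the TCF core (CTTTG followed by 2 bases that are each A or T), are carried by the first lines. Stronger peaks with some of these motifs, among them Alg3 and eEF1alpha1, are not printed, and their values are given below with the motifs.
CG14100, chr3L:19590569-19590669, minus strand: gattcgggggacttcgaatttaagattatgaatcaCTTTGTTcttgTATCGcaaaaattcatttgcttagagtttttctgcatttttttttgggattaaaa
CG18549, chr3R:12449121-12449221, plus strand: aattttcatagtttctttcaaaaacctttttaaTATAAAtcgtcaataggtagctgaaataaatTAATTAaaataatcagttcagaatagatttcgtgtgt
gish, chr3R:16280684-16280784, plus strand: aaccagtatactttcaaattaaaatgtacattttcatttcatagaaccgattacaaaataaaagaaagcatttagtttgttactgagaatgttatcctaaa
MFS18, chr2L:4448652-4448752, minus strand: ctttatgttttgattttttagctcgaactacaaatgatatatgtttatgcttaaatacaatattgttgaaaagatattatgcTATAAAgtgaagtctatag
eEF1gamma, chr3R:29220078-29220178, plus strand: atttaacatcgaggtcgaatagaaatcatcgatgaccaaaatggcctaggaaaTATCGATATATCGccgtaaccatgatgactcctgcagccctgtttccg
Rnp4F, chrX:5322711-5322811, minus strand: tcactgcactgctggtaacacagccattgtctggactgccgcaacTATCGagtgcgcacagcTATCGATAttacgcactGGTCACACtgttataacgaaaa
bowl, chr2L:3771439-3771539, plus strand: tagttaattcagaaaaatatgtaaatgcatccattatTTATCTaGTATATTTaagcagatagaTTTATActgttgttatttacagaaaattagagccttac
Sptr, chrX:8464504-8464604, minus strand: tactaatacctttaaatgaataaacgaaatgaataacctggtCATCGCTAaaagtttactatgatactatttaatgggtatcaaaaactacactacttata
msi, chr3R:25515866-25515966, plus strand: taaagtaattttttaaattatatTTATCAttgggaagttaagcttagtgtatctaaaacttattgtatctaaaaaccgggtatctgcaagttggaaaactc
The windows at CG18549, gish, MFS18, bowl and msi were long runs of A and T, with a GC content of 22.8, 24.8, 23.8, 23.8 and 26.7%. The windows at eEF1gamma and Rnp4F, which hold DRE, had 43.6 and 48.5%. The window at Sptr, which holds Motif 7, had 26.7%, and that at CG14100, which holds BEAF-32 and the TCF core, 30.7%. The printed windows therefore did not divide by motif into low and high GC content. The summit at gish lay in an annotated intron, those at the other 8 genes in intergenic sequence. The window at gish held no match to any of the 9 motifs.

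Signal was high in both replicates at the head of the list. The peak 95 bp before the TSS of CG14100 had the highest signal of the set, 2660.4 in the pooled list, with 1378.4 in replicate 1 and 1278.0 in replicate 2. At CG18549 the peak 125 bp before the TSS had 942.8 and 924.3. At gish, which encodes a casein kinase 1 gamma that acts on the Wingless co-receptor, the peak 155 bp before the TSS had 826.5 and 735.0. These 3 peaks were high in both replicates, and their replicate values lay far above the medians of 59.2 and 64.9. Gapdh2, a glycolytic enzyme gene, had 495.7 in replicate 1 and 718.7 in replicate 2, a wider gap. The scale of the authors' signal is not given in the sources used here, so it serves only to rank and describe peaks. Read depth is unknown.

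Among the 20 strongest peaks, 18 lay before the TSS, 16 of them over 100 bp before it. Besides those above, they lay nearest to Fkbp14, an endoplasmic reticulum protein-folding enzyme gene, px, which acts in wing vein patterning, GstE13, a glutathione S-transferase gene, Tina-1, CG1888, MFS18, RluA-1, which belongs to the pseudouridine synthases, CG1635, osp, MFS10, which belongs to the major facilitator transporters, CG46429, CG1142 and msi, the RNA-binding protein Musashi. The other 3 of the 20 were the antisense RNA asRNA:CR45928 and the long non-coding RNAs lncRNA:CR31044 and lncRNA:CR44339. The peaks after the TSS were those of asRNA:CR45928, with a signal of 1814.8 at 80 bp, and GstE13, with 1531.0 at 74 bp. All 100 of the 100 strongest peaks passed in both replicates' own lists, where a peak counts as found if the peaks overlap by 50% of the shorter.

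Over all 1196 peaks, 609 (50.9%, 95% exact interval 48 to 53.8%) were in both replicates' lists, against 53% of all conservative peaks. A further 96 were in replicate 1 only, 247 in replicate 2 only, and 244 (20.4%) in neither, having passed only in the lists that use both replicates. A value could be read in both replicates' ranked lists for 1115 peaks, and across them Spearman's rho was 0.77. These points share 2 libraries, and the values depend on local read coverage, so rho describes the list. The ratio of replicate 2 to replicate 1 had a median of 1.06, and 90% of peaks lay between 0.606 and 1.9. Replicate 2 was the higher at 657 (58.9%).

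**Figure D1:**
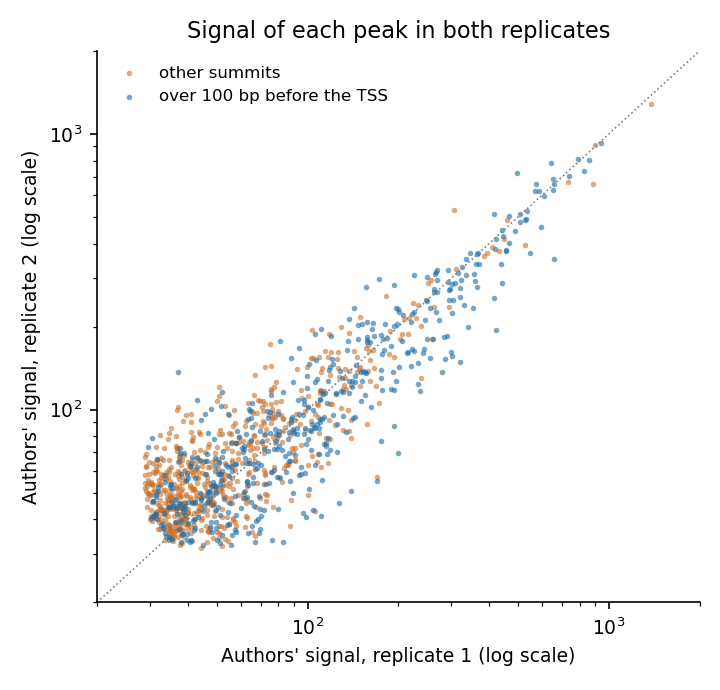
Authors' signal of 1115 core promoter peaks in replicate 1 (x axis) and replicate 2 (y axis), both on log scales, with the line of equality dotted; blue points are summits over 100 bp before the TSS and orange points all others. Peaks of high signal lie close to the line, and weak peaks spread around it, with replicate 2 the higher at 657.

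Core promoter peaks differed from divergent-pair peaks in both measures of strength. Of 1064 divergent-pair peaks, 60.8% were in both replicates' lists, giving core promoter peaks an odds ratio of 0.669 (95% interval 0.566 to 0.79; Fisher's exact test, two-sided, adjusted exact p = 7.45e-06). The share with a signal above the median of the whole conservative list was 48.9% at core promoters and 59.4% at divergent pairs (odds ratio 0.654, adjusted exact p = 1.82e-06). The lower replicate share went with the lower signal: within 4 equal groups by pooled signal, an alternative added after seeing the data, the odds ratio for both lists was 0.869 (0.662 to 1.14) and did not pass. Against 1168 flanking peaks, more than 250 bp and up to 1 kb from a TSS, the share in both lists was lower (50.9 against 56.1%, odds ratio 0.813, adjusted exact p = 0.02), and the share above the median was 48.9 against 53.2%, which did not pass (adjusted exact p = 0.0596). Against all other conservative peaks neither measure passed, with odds ratios of 0.903 (95% interval 0.796 to 1.02) and 0.948 (0.836 to 1.08). Peaks are not independent replicates, so all Fisher tests here describe the lists and not the spread between embryos.

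Summits sat before the TSS far more often than after it. The distance limit was unsigned, but leaving out divergent pairs used the strand and order of TSSs. That step was applied to both sets compared, and the side was not compared without it. Of the 1196 summits, 865 (72.3%, 69.7 to 74.8%) lay before the TSS, 4 exactly at it and 327 after it. They were compared with 7421 unselected peaks, which met the same position rule in the pooled ranked list, missed its cut-off on the irreproducible discovery rate (IDR, a score of how well peaks recur) and overlapped no list of passing peaks. Of these, 45.1% (44 to 46.3%) lay before the TSS, an odds ratio of 3.18 (2.78 to 3.64, exact p = 5.28e-70). The median summit was 78 bp before the TSS (quartiles -161 and 10), against 18 bp after it for unselected peaks. With both sets divided by GC content in bins of 5 points, a step added after seeing the data, the pooled odds ratio was 2.41 (2.09 to 2.77). With divergent pairs defined within 500 bp or 2 kb, 72.4 and 73.2% of core promoter summits lay before the TSS.

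**Figure D2:**
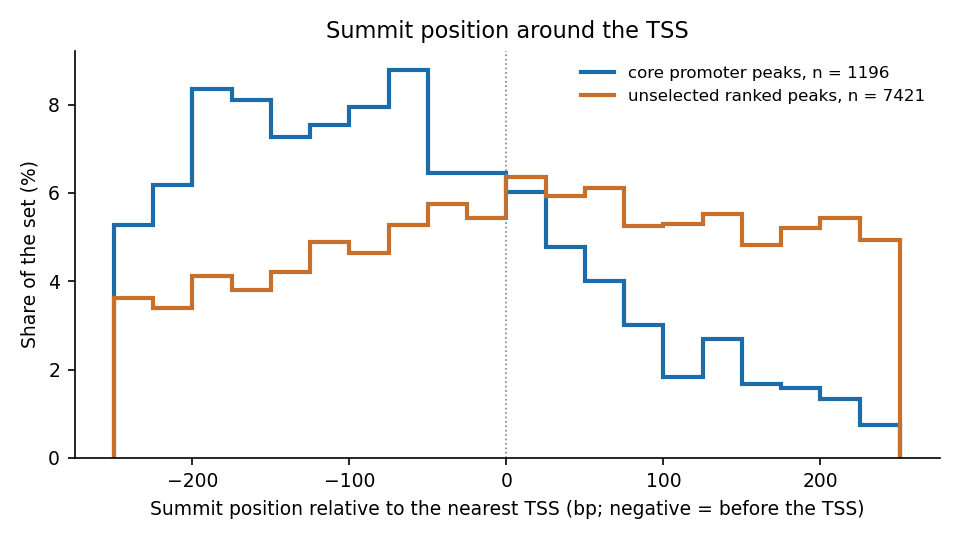
Share of summits (y axis, %) in bins of 25 bp (the last bin is 1 bp wider) by position relative to the nearest TSS (x axis, bp, negative before the TSS), for 1196 core promoter peaks and 7421 unselected ranked peaks. Core promoter peaks hold 8.36% of summits at -200 to -176 and 0.753% at 225 to 250, while unselected peaks stay between 3.4 and 6.35% throughout.

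The annotation under the summit differed from that of unselected peaks as well. The classes of sequence were compared over both sides of the TSS together, and 72.3 against 45.1% of summits lay before it. How far these differences go with the side was not tested. Intergenic sequence held 507 summits (42.4%, against 22% of unselected peaks, odds ratio 2.61, adjusted exact p = 9.46e-47) and introns 305 (25.5 against 21.2%, odds ratio 1.27, adjusted exact p = 0.00154). Coding exons held 22 (1.84 against 19.3%, odds ratio 0.0785, adjusted exact p = 1.4e-70). The 5′ UTR held 275 (23 against 26.6%, odds ratio 0.825, adjusted exact p = 0.0104) and non-coding exons 69 (5.77 against 8.91%, odds ratio 0.626, adjusted exact p = 0.000425). The 3′ UTR held 18 (1.51 against 2.02%), which did not pass (adjusted exact p = 0.26). The 3′ end of another protein-coding gene lay within 250 bp of 181 summits (15.1 against 9.12%, odds ratio 1.78, adjusted exact p = 1.23e-09). Among summits before the TSS alone it lay within that distance of 19.2 against 12.6% (odds ratio 1.65, adjusted exact p = 1.53e-06). A summit inside the body of another protein-coding gene was less frequent, 13.7 against 22.9% (odds ratio 0.535, adjusted exact p = 3.71e-13).

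Signal was highest between 100 and 200 bp before the TSS. The pooled median was 135.7 at -250 to -201, 176.7 at -200 to -151, 162.0 at -150 to -101 and 124.8 at -100 to -51. It was 101.6 over the last 50 bp before the TSS and 92.1 over the first 50 bp after it. Beyond that it stayed between 91.5 and 101.1. Both replicates showed the same order at the extremes, with replicate medians of 98.3 and 86.8 at -200 to -151, and 42.3 and 53.8 at 0 to 49. The share of peaks in both lists was highest, 70.1%, at -150 to -101 and lowest, 27.4%, at 50 to 99. A boundary of 100 bp before the TSS was chosen after these values were seen, so what follows describes the same pattern with no test. A signal above the median of the 1196 was found at 338 of 511 peaks (66.1%) lying farther before the TSS than this and at 260 of the other 685 (38%). In replicate 1 the shares above that replicate's median were 67.8 and 36.2%, and in replicate 2 they were 62.4 and 40.6%.

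Base composition moved with position and with signal. The median GC content of the window 50 bp either side of the summit was 30.7% at -250 to -151 and 49.5% at 0 to 49. In 5 equal groups by signal it was 46.5, 46.5, 42.6, 34.7 and 29.7% from the weakest to the strongest. In the same order the share before the TSS was 56.2, 63.2, 72.4, 82.4 and 87.4%, and the share in both lists 1.67, 8.37, 53.1, 92.1 and 99.6%. The odds ratio of a high signal over 100 bp before the TSS, also given with no test, was 3.19 over all peaks and 1.72 within bins of GC content. Over all 1196 windows the median GC was 39.6%, against 47.5% at unselected peaks and 33.7% at both divergent-pair and flanking peaks. The part of GC content in the position of the signal, through sequencing or otherwise, was not tested.

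**Figure D3:**
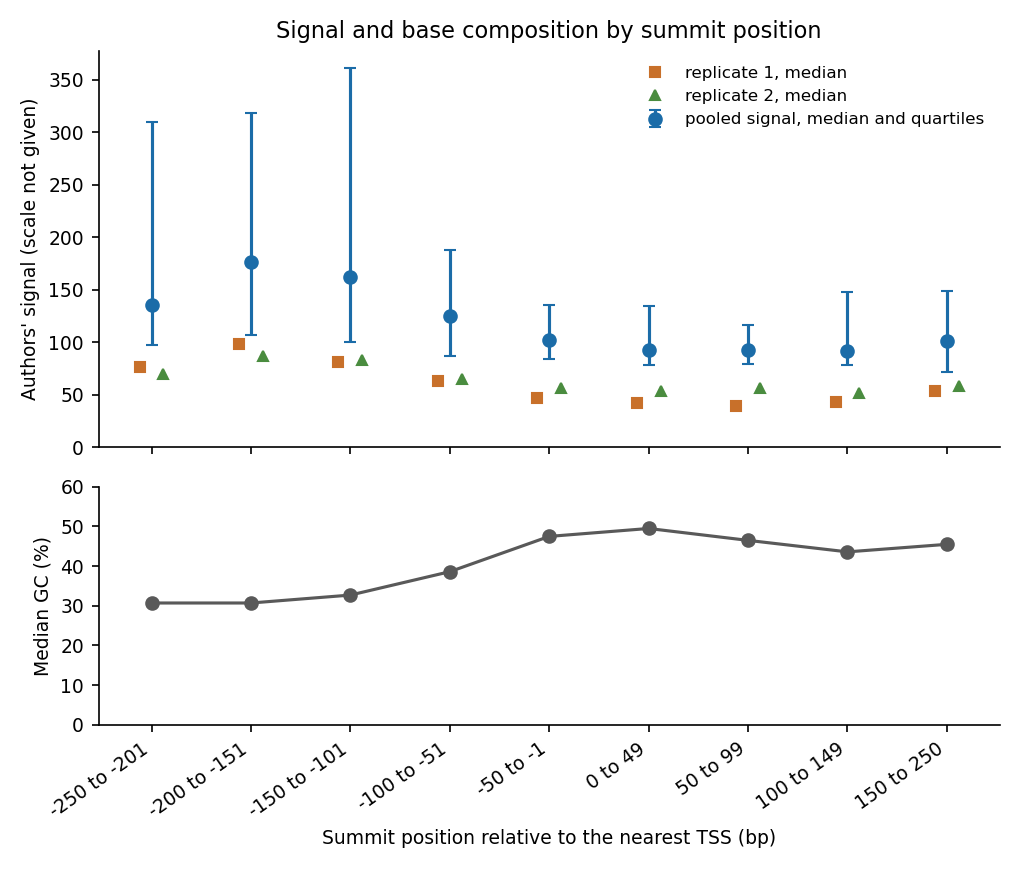
Upper panel, authors' signal (y axis, scale not given) by summit position (x axis, bp from the nearest TSS): blue points with bars are pooled medians and quartiles, squares and triangles the medians of replicates 1 and 2. Lower panel, median GC content (%) of the window 50 bp either side of the summit, which is 30.7% where the pooled median signal peaks at 176.7 and 49.5% just after the TSS.

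The lowest signals came from overlapping peaks. Peaks overlapping another conservative peak had a median of 68.2, against 125.0 for the 1081 that overlapped none. Of the 49 peaks with a signal under 30, 48 overlapped another peak. One example is the second summit at wg, with 3.8, whose neighbour had 165.9. In all, the 1196 peaks had 1166 distinct nearest TSSs.

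Several motifs within 50 bp of the summit differed in frequency between the peaks and unselected promoter peaks. The unselected peaks were also weaker, with a median pooled signal of 26.0 against 118.4. Of the 14 motifs sought on both strands, 9 (64.3%) were more frequent (Fisher's exact test, two-sided, Benjamini-Hochberg adjusted p under 0.05) and 0 (0%) were less frequent. At an unadjusted p under 0.05, 1 was less frequent, the GAGA factor's site GAGAG (called GAGA below), at 13.5 against 15.8% (odds ratio 0.828, adjusted exact p = 0.0541). Given first are the 4 of these 9 that kept their calls within bins of GC content. DRE was in 37 windows (3.09 against 1.02%, odds ratio 3.09, 2.07 to 4.59, adjusted exact p = 1.36e-06), BEAF-32 in 224 (18.7 against 14.3%, odds ratio 1.38, adjusted exact p = 0.0003), Motif 1 in 20 (1.67 against 0.741%, odds ratio 2.28, adjusted exact p = 0.00556) and Motif 7 in 50 (4.18 against 2.17%, odds ratio 1.97, adjusted exact p = 0.0003). Within those bins their odds ratios were 2.68, 1.45, 2.87 and 2.14. Motif 6, given below with the other motifs that lost their calls, had 1.1 (0.795 to 1.53). In replicate 2's list alone Motif 7 did not pass (odds ratio 1.47), and in replicate 1's list alone Motif 1 did not (1.97). Above the median signal of the list DRE, BEAF-32 and Motif 1 did not pass, at 2.02, 1.21 and 1.86. GAGA passed as lower in replicate 1's list alone, at 0.591, as did the E-box CAGCTG, at 0.619. M1BP reads Motif 1, and DREF reads DRE.

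None of the other 5 of these motifs kept its call within bins of GC content. They were rich in A and T, as was DRE. The TATA box hexamer was in 181 windows (15.1 against 8.76%, odds ratio 1.86, adjusted exact p = 8.54e-10), and its odds ratio within bins was 0.863 (0.704 to 1.06). The homeodomain site was in 83 (6.94 against 3.56%, odds ratio 2.02, adjusted exact p = 1.36e-06), with 1 (0.752 to 1.34) within bins. GATA was in 152 (12.7 against 9.24%, odds ratio 1.43, adjusted exact p = 0.000605), also with 1 (0.815 to 1.23) within bins and no call in replicate 2's list alone (1.2), and Motif 6 in 56 (4.68 against 2.67%, odds ratio 1.79, adjusted exact p = 0.000605), with 1.1 (0.795 to 1.53) within bins. The TCF core, the sequence that TCF proteins bind, was in 8.44% of windows (6.93 to 10.2%) against 5.97% of unselected windows (odds ratio 1.45, 1.16 to 1.82, adjusted exact p = 0.00289). Within bins of GC content its odds ratio was 1.2 (0.945 to 1.53) and did not pass. The remaining 4 motifs did not pass: the Initiator (TCANTN, the first N being G or T and the last C or T) at 24.2 against 24.5%, the E-box CAGCTG at 5.35 against 5.62%, the E-box CACGTG at 1 against 1.4%, and the Zelda site CAGGTA at 1.51 against 2.28%.

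**Figure D4:**
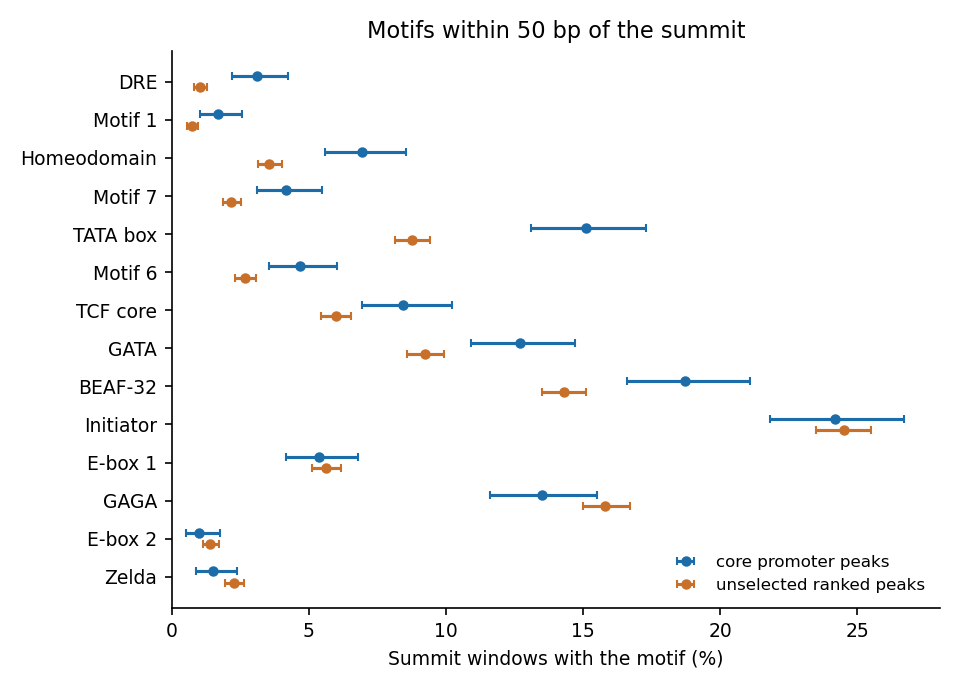
Share of summit windows holding each of 14 motifs (x axis, %), ordered by odds ratio from top to bottom, for 1196 core promoter peaks (blue) and 7421 unselected ranked peaks (orange), with 95% exact intervals. E-box 1 is CAGCTG and E-box 2 is CACGTG; DRE has the highest odds ratio, 3.09, and the TCF core lies at 8.44 against 5.97%.

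The motifs were not spread evenly along the promoter. Of the 37 windows with DRE, 31 had their summit within 100 bp before the TSS, where 8.76% of 354 windows (6.03 to 12.2%) held it, against 3.32% of unselected windows there. BEAF-32 was in 34.7% of windows in that stretch and 10.4% of those over 100 bp before the TSS, and Motif 7 was also more frequent in the nearer stretch, at 9.04%. Unselected windows had the same order, with 21.3 and 13% for BEAF-32 and 3.83 and 1.57% for Motif 7. At core promoter peaks TATAAA ran the other way, with 9.6% in the nearer stretch and 22.3% of 511 in the farther one, as did the homeodomain site, with 4.24 and 11.4%. Unselected windows held TATAAA in 12.5 and 10.4% and the homeodomain site in 3.13 and 4.71%. The TCF core was in 8.81% of the farther windows, 7.34% of the nearer and 9.06% of those after the TSS, with intervals that overlapped. In tests by distance, DRE, BEAF-32, Motif 1 and Motif 7 were the only motifs that passed as higher than at unselected peaks within 100 bp of a TSS, with odds ratios of 3.01, 1.87, 2.27 and 2.39. Beyond 100 bp the odds ratio of DRE was 2.9, about the same, but did not pass, and those of BEAF-32, Motif 1 and Motif 7 were 0.838, 1.3 and 1.22. The motifs that passed as higher there were the TATA box, the homeodomain site, Motif 6, GATA and the TCF core, with odds ratios of 3.05, 2.79, 2.01, 1.93 and 1.71. The odds ratios were not tested against each other.

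**Figure D5:**
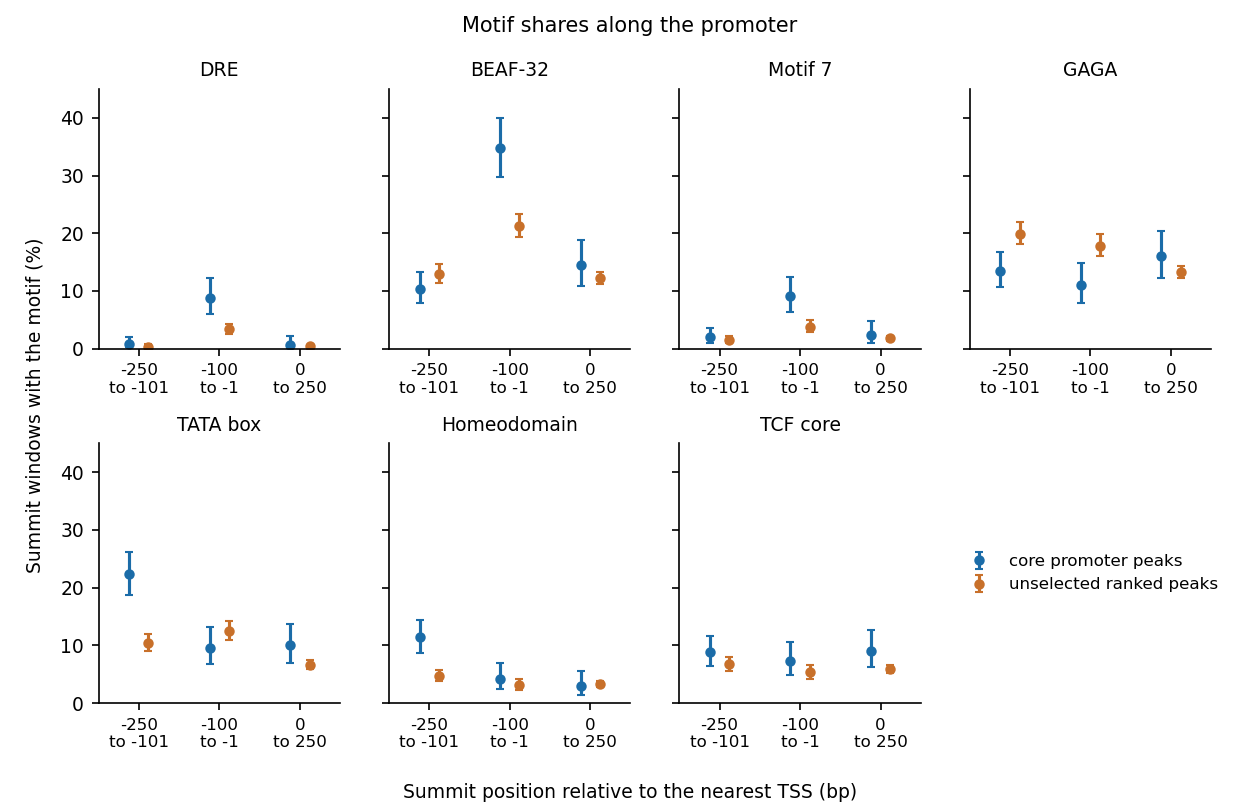
Share of summit windows holding each of 7 motifs (y axis, %, with 95% exact intervals) in 3 stretches by summit position (x axis, bp from the nearest TSS), for core promoter peaks (blue) and unselected ranked peaks (orange). BEAF-32 reaches 34.7% within 100 bp before the TSS, TATAAA reaches 22.3% over 100 bp before it, and the TCF core stays between 7.34 and 9.06%.

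The TATAAA matches were mostly not at the place of a TATA box. Of the 181 peaks with TATAAA near the summit, 10 (5.52%) had one on the sense strand starting 40 to 20 bp before the nearest TSS, against 137 of 650 (21.1%) of unselected peaks. Of the 181, 114 had summits over 100 bp before the TSS, against 186 of the 650, and windows there end before that place. The shares were not compared at equal summit positions, so they do not separate TATA box use from summit position. Among 1041 protein-coding TSSs nearest to a core promoter peak, 39 (3.75%, 2.68 to 5.09%) had TATAAA there, against 7.89% of all 13174 non-divergent protein-coding TSSs. In windows of 50 bp either side of the TSS, TATAAA was in 7.68% at the bound TSSs and 16.5% at all, GAGA in 18.4 and 13.8%, DRE in 4.13 and 2.41%, BEAF-32 in 22.4 and 18.5%, Motif 1 in 5.19 and 2.82%, and Motif 7 in 5.38 and 3.06%. The same windows held the TCF core in 5.67 and 7.17%, the homeodomain site in 1.25 and 2.8%, GATA in 7.11 and 9.59%, and Motif 6 in 4.42 and 3.67%. An Initiator whose A lay within 5 bp of the TSS was at 18.4% (16.1 to 20.9%) of the bound TSSs and 14% of all. These shares are descriptions, and the sets overlap.

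Median signal was lower at peaks with DRE, Motif 1 or GAGA and higher at peaks with TATAAA or the homeodomain site, given here without a test. With DRE and without it, the median signal was 42.0 and 58.7 in replicate 1 and 55.9 and 64.4 in replicate 2. The pooled median was 96.9 with Motif 1 and 119.0 without, and 96.5 and 124.8 for GAGA. It was 162.0 with TATAAA and 112.6 without, and 155.7 and 114.8 for the homeodomain site. For the TCF core it was 126.0 and 116.5, with replicate medians of 60.8 against 57.6 and 71.1 against 64.0. The share with the TCF core in the 5 groups by signal was 5.83, 10, 7.95, 8.79 and 9.62% from weakest to strongest. Among peaks with DRE, Alg3, a mannosyltransferase gene of protein glycosylation, had the strongest, at 384.1 in replicate 1 and 360.8 in replicate 2, followed by CG1827, with 268.0 and 267.8. The strongest with Motif 7 were at Sptr, the sepiapterin reductase gene, with 207.7 and 220.8, and Regnase-1, a ribonuclease gene, with 129.0 and 199.0. For Motif 1 they were at eEF1alpha1, a translation elongation factor gene, with 161.1 and 151.8, and RpL30, with 131.6 and 122.4.

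Motif content also differed from that of the divergent-pair and the flanking peaks. Against divergent pairs, DRE (3.09 against 5.26%, odds ratio 0.575, adjusted exact p = 0.0273), BEAF-32 (18.7 against 23.9%, 0.735, adjusted exact p = 0.0114), Motif 7 (4.18 against 6.86%, 0.592, adjusted exact p = 0.0165), TATAAA (0.661, adjusted exact p = 0.00105) and the homeodomain site (0.598, adjusted exact p = 0.00254) were lower. GAGA was higher (13.5 against 7.52%, odds ratio 1.91, 1.44 to 2.54, adjusted exact p = 4.08e-05). In replicate 1's list alone DRE (0.475), BEAF-32 (0.807), Motif 7 (0.885) and GAGA (1.4) did not pass, and in replicate 2's list alone BEAF-32 (0.849) did not. Above the median signal none of these 4 passed, nor did the homeodomain site. Against flanking peaks, DRE was in 37 core promoter windows and 1 of 1168 flanking windows (odds ratio 37.3, adjusted exact p = 6.62e-09). This ratio rests on 1 flanking window. It was 22.5 and 19.3 in the lists of replicate 2 and replicate 1 alone and 9.69 with windows of 100 bp either side, and it passed each time. BEAF-32 (odds ratio 1.87, adjusted exact p = 1.78e-06), Motif 1 (6.6, adjusted exact p = 0.00219) and Motif 7 (3.6, adjusted exact p = 4.1e-05) were also higher there, and TATAAA (0.743, adjusted exact p = 0.0211) and GATA (0.745, adjusted exact p = 0.0282) lower. Motif 1 was at 3.95 in replicate 2's list alone and at 3.29, without passing, in replicate 1's. TATAAA passed against flanking peaks in neither replicate's list alone (0.837 and 0.833). The calls on TATAAA, the homeodomain site and GATA were lost within bins of GC content, where their odds ratios lay between 0.836 and 0.953. The TCF core passed in neither comparison, with odds ratios of 1.04 (0.768 to 1.4) and 1.09 (0.812 to 1.47).

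The peaks lay nearest to 1109 genes. Protein-coding genes were nearest to 1069 peaks and numbered 985, or 7.05% of the 13968 annotated. They were long genes with several promoters: the median length was 5.9 kb against 2.16 kb for all protein-coding genes, and the median number of TSSs 2 against 1. A longer gene with more TSSs has more places where a peak can count, and this was not adjusted for. Of 634 peaks at genes with several TSSs, 275 (43.4%) were at the first. Ptpmeg2, a tyrosine phosphatase gene, had the most peaks, 5. Its 3 strongest had signals of 358.8, 226.2 and 249.4 in replicate 1 and 291.9, 307.6 and 302.1 in replicate 2, and lay 194, 184 and 172 bp before different TSSs. RapGAP1, an activator of the Rap GTPase, Rtnl1, a reticulon gene, CG5004, Eip75B, an ecdysone-induced nuclear receptor gene, red, Pfrx, which makes the regulator of glycolytic phosphofructokinase, and SNF4Agamma, a subunit gene of the kinase AMPK, had 3 each. The 3 peaks of Eip75B lay 81, 102 and 181 bp after the TSS, while those of RapGAP1 lay 172, 174 and 235 bp before it.

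Cytosolic ribosomal protein genes had a core promoter peak at 19 of 93 (20.4%, beside 7.05% of all protein-coding genes). A divergent-pair peak was carried by 44 of the 93 (47.3%, beside 9.98% of all protein-coding genes). Their 20 peaks sat close to the TSS, 15 within 50 bp of it (75%, beside 23.9% of all 1196), and 1 lay over 100 bp before it. RpL23A had the highest signal of these, 208.3 in replicate 1 and 212.8 in replicate 2, followed by RpL24, with 103.5 and 194.6, and RpS10b, with 114.4 and 163.3. Of the 20, 15 were in both lists, 10 held BEAF-32, 4 Motif 1, 3 DRE, 2 the TCF core and 0 TATAAA or GAGA. The pyrimidine-rich initiator of such genes (CTTT with 2 pyrimidines on each side, its C within 5 bp of the TSS) was at 3 of their 20 bound TSSs and 17 of all 63 non-divergent ones. Translation factors had 6 of 53 genes, or 3 in replicate 1's list alone, among them eEF1gamma, with 238.6 and 200.4, eEF1alpha1 and eIF2D, with 72.1 and 104.6.

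Other lists of broadly used genes were below the general share of 7.05%. Mitochondrial ribosomal proteins had 0 of 75 genes, splicing factors 0 of 36 and nuclear pore proteins 0 of 26. The rule leaves out promoters in divergent pairs, and no list was limited to genes whose promoters could hold a core promoter peak. With pairs defined within 500 bp the 3 counts were 3, 2 and 1, beside 1183 of all protein-coding genes. A divergent-pair peak under the main rule was carried by 19 mitochondrial ribosomal protein, 11 splicing factor and 9 nuclear pore genes (25.3, 30.6 and 34.6%, beside 9.98% of all protein-coding genes). The proteasome list had 1 of 48 (Rpn12, with 73.5 and 49.2), tRNA synthetases 1 of 33 (AlaRS, with 45.6 and 52.6), oxidative phosphorylation 3 of 91 (ATPsynB, ND-B17 and SdhD, with 0 in replicate 1's list alone) and replication 2 of 38 (PolA1 and PolE1, subunit genes of DNA polymerases, with 0 in replicate 2's list alone and 1 in replicate 1's). Divergent-pair peaks were at 7 proteasome (14.6%), 9 tRNA synthetase (27.3%), 10 oxidative phosphorylation (11%) and 5 replication genes (13.2%), again beside 9.98%. Lists of genes used late or in few cells were almost empty. Chemosensory receptors had 0 of 180 and digestive proteases 0 of 27, and cuticle proteins had 1 of 121, TwdlP, with 31.3 in replicate 1 and 48.1 in replicate 2, in neither replicate's list.

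Wnt pathway genes had a core promoter peak at 8 of 44 (18.2%, beside 7.05% of all protein-coding genes), with 10 peaks, of which 9 lay before the TSS and 7 were in both lists. Besides gish, the strongest were at gro, which encodes the co-repressor Groucho, with 365.6 in replicate 1 and 367.5 in replicate 2, and sgg, the GSK3 kinase of the Armadillo destruction complex, with 301.8 and 285.9. Both peaks of gro, 126 and 130 bp before different TSSs, held a TCF core, and the other 8 peaks of the list held none. The share over all 1196 peaks was 8.44%. The peak 160 bp before nkd, a feedback inhibitor of the pathway, had 193.7 and 283.8. The ligand gene wg had 78.7 and 81.8 at the peak 188 bp before its TSS, and dally, a glypican gene, had 51.1 and 84.5 at 27 bp before its own. Wnt4, with 37.8 and 37.0, was in neither replicate's list. The peak 193 bp before Wnt6 had a pooled signal of only 30.2 and no matching peak in replicate 2. Its value of 92.1 in replicate 1 is that of the strongest overlapping peak there, which may be a neighbour. The longer pooled list raised the Wnt count from 8 to 14, and a limit of 100 bp from the TSS lowered it to 3.

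Polycomb and trithorax group genes had a core promoter peak at 6 of 39 (15.4%, beside 7.05% of all protein-coding genes). The count was 3 in replicate 1's list alone, 7 in replicate 2's and 2 within 100 bp of a TSS. Of the 6 peaks 0 lay before the TSS, beside 72.3% of all 1196. They were at Trl, which encodes the GAGA factor (187.6 in replicate 1 and 193.5 in replicate 2, 136 bp after the TSS), ph-p (105.7 and 42.8, 1 bp after it) and Psc (49.4 and 69.5, 155 bp after it), and at ph-d, Su(z)2 and Utx. The proteins of ph-p, ph-d, Psc and Su(z)2 act in Polycomb complexes, and Utx removes a Polycomb histone mark. Among Hox genes, 1 of 8 (12.5%, beside the same 7.05%) had a peak, and 0 in replicate 2's list alone. It was at Antp, with 51.5 and 55.8 at 206 bp before a TSS, and overlapped a peak in each replicate's list. The count of 0 applies the position rule to replicate 2's own summits. These lists were chosen with results of these data known, and their counts are given without a test.

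Of the other peaks, 112 lay nearest to genes annotated as ncRNA, which include long non-coding and antisense RNAs, and 15 to small RNA genes, which were looked at after their values were seen. The strongest of these, 199 bp before tRNA:Tyr-GTA-1-8, had 296.0 in replicate 1 and 274.0 in replicate 2. The other 8 tRNA genes had pooled signals of 63.6 to 147.0. The 5 snRNA genes, among them snRNA:U1:95Ca (71.2 and 107.7), snRNA:U2:34ABb (71.2 and 91.2) and snRNA:7SKa (57.2 and 60.5), had 91.6 to 182.6. The 1 snoRNA gene, snoRNA:CG31191-a, had 63.4 and was in neither list. A protein-coding TSS also lay within 250 bp of 13 of these 127 peaks. Of annotated genes, 109 of 3289 ncRNA (3.31%), 9 of 290 tRNA (3.1%), 5 of 32 snRNA (15.6%) and 1 of 269 snoRNA genes (0.372%) had a peak. The share of protein-coding genes was 7.05%.

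The limit of 250 bp cut through a continuous range of positions. Just inside it, at 250 bp before the TSS, peaks at CG5004 and blow had pooled signals of 118.3 and 103.1. Just outside it, at 1 bp beyond the limit, lncRNA:CR45541 had 400.1 before its TSS and if, an integrin gene, had 167.5 after it. By chromosome, 2R held 21.2% of the peaks and 17.9% of all conservative peaks, and 3L held 18.8 and 21.9%.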

How the data were processed

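The authors deposited peak lists on dm6, per the file headers: a ranked list and a list of passing peaks, selected on the irreproducible discovery rate (IDR), for each replicate and for both pooled. Each peak carries the deposited signal (signal value of the caller, scale not given), a −log10 q, which the authors gave, and, in ranked lists, a −log10 global IDR; other deposited columns give the distance from peak start to summit. The aligner, caller and control handling are not given in the sources used here. All conservative peaks had a −log10 global IDR of at least 2. Of 6366 conservative peaks, 7 off the main arms were left out. A second pooled ranked list was not used.

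Summits were placed against the Ensembl BDGP6.54 annotation (release 115) without pseudogenes or transposable elements, and sequence was read from the RefSeq copy of the same assembly. Replicate signals came from each replicate's own ranked list, as the strongest peak overlapping by 50% of the shorter. Differences in shares were tested with the two-sided exact test of Fisher, with Woolf intervals for odds ratios, exact binomial intervals for shares and Benjamini-Hochberg adjustment within each family (14 motifs, 28 tests against divergent and flanking peaks, 3 comparison sets). GC strata used Mantel-Haenszel pooling. Python 3.11.15, pandas 2.3.3, scipy 1.17.1 and statsmodels 0.14.6 were used, and the steps were tested on simulated data.

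Members, motifs and gene lists were chosen with earlier results of these data known. Genes named were those nearest the 20 strongest peaks, up to 3 of each list, the 2 strongest with a motif, up to 10 with most peaks, the 2 on either side of the limit, and, picked beyond this rule once values were known, further peaks of the Wnt, Polycomb and translation lists and small RNA genes. Sequences shown were off certain arms and held at most 30 UTR bases. Alternatives were the list of each replicate, the longer pooled list, merging of peaks, the stronger part by signal, and other distances, windows and overlap rules. The limits set by peak overlap and unknown depth apply to every count.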

Additional observations from a re-analysis of the deposited data

How the results depend on the processing

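The main count of 1196 core promoter peaks, with 985 protein-coding genes, fell to 568 and 501 within 100 bp of a TSS and to 585 and 515 in the part of the list above its median signal. Leaving out 1 replicate gave 760 peaks (replicate 1's list) to 1173 (replicate 2's), 652 to 978 genes, 69.7 to 80.3% of summits before the TSS, 46.2 to 55.5% above the list median, 7 to 8 motifs higher and 0 to 2 lower. In replicate 1's list alone, the share above the list median no longer differed past the threshold from divergent pairs, at 55.5%. Above the median signal, 90.9% of peaks were in both lists, and the direction against divergent pairs turned, without passing. Motifs higher than at unselected peaks numbered 9 in the main comparison, 4 within 100 bp, 5 beyond 100 bp and 4 within GC bins. Motifs lower numbered 0 in the main comparison, 1 within 100 bp (Initiator), beyond it (CAGCTG), above the median signal (GAGA), for divergent pairs within 500 bp (GAGA), for summits before the TSS (GAGA) and in windows centred on the TSS (TATAAA), and 2 with protein-coding TSSs only (GAGA and Zelda). Odds ratios against unselected peaks that turned, with the main or the other value passing, were, within 100 bp, TATAAA 0.966 and GATA 0.928, beyond it BEAF-32 0.838, within GC bins TATAAA 0.863, and in TSS-centred windows TATAAA 0.507, the homeodomain site 0.763, GATA 0.945, the TCF core 0.874, the GAGA site 1.25 and the E-box CAGCTG 1.64. In TSS-centred windows the first and the last 2 of these passed. Against divergent pairs Zelda went from 0.759 to 2.06 without replicate 1, passing in neither. Of 7 alternatives each, the calls against divergent pairs held in 3 for BEAF-32, 4 for DRE, Motif 7 and the homeodomain site, 5 for GAGA and 6 for TATAAA. Against flanking peaks they held in 7 for DRE and BEAF-32, 6 for Motif 7, 5 for Motif 1, 4 for GATA and 1 for TATAAA. The odds ratio of a high signal far before the TSS, which has no test, was 2.39 above the median signal and 1.72 within GC bins, in place of 3.19. The cause of these changes was not tested. The summits before the TSS and the GC bins were chosen after seeing the data. With divergent pairs defined within 500 bp, ribosomal protein genes numbered 32 in place of 19. An IDR of 0.01 removed 0 peaks. No paired analysis was possible because there is 1 group. Depth is unknown, so no interval covers it.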
